A study of Mus musculus with 12 samples.

Results

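The data describe 3 genes for secreted growth factors of the macrophage and granulocyte lineages, Csf1, Csf3 and Il34, in mouse embryonic fibroblasts. They were taken by gene name from a table of 48709 genes, and all 3 were found and passed the filter on low counts. The fibroblasts came from wild type C57BL/6 embryos of stage E12.5–13.5, and all received an siRNA. The siRNA was either a control (siControl) or one against IMP2 (siIMP2), the RNA-binding protein encoded by Igf2bp2. After 24 hours the medium was replaced, and the cells stayed unstimulated or received IL-17 at 200 ng/mL for 8 hours, so that the 4 groups were siControl, siControl_IL17, siIMP2 and siIMP2_IL17, with 3 libraries each. In every group replicates 1 and 2 have titles that start with NA and replicate 3 has a title that starts with RB160, 8 and 4 libraries in all. The labels do not say what this prefix stands for. The study asked whether IMP2, a reader of N6-methyladenosine in mRNA, directs the response of stromal cells to IL-17.

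Colony-stimulating factors are cytokines through which stromal cells direct the survival, growth and maturation of myeloid cells. CSF-1, the product of Csf1, is made by fibroblasts without stimulation and keeps macrophages alive through the receptor CSF-1R. IL-34, the product of Il34, binds the same receptor with an unrelated sequence and is best known from neurons and keratinocytes. G-CSF, the product of Csf3, drives the production and release of neutrophils through its own receptor. In fibroblasts and other stromal cells Csf3 is a classical target of IL-17, its promoter is bound by NF-kB and C/EBP factors, and its mRNA is short-lived through AU-rich elements in the 3′ UTR.

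Reads counted in genes came to 33841054 to 44433699 a library. The siRNA target checked the labels: Igf2bp2 lay between 55 and 66.8 TPM, transcript abundance scaled for length and depth, in the 6 control siRNA libraries and between 6.65 and 12.8 TPM in the 6 IMP2 siRNA libraries, and it fell by 2.74 ± 0.10 on the log2 scale on average (SE, adjusted p = 2.39e-09, edgeR). The fibroblast markers were abundant, with Col1a1 at 244709 reads or more in each library. Of the 13 macrophage markers in the table, 4 (Adgre1, Fcgr1, Tyrobp and C1qb) had 0 exon reads in all 12 libraries. So had 5 of 10 neutrophil markers (Csf3r, S100a9, Mpo, Ngp and Ltf). Other macrophage markers were detected, such as Cd68 at 83 to 158 reads and Csf1r at 32 to 119 reads a library.

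Because the stability of such mRNAs is controlled through the 3′ UTR, a 30-base window of each member's longest annotated 3′ UTR is shown, taken where the pentamer ATTTA, the core of AU-rich elements, is most frequent. Capitals mark ATTTA, and the sequences are those of GENCODE transcripts on the same build as the counts.
Csf1: aaggtcATTTAaatatctATTTAaaaaata
Csf3: gtttATTTAtctctATTTAatATTTAtgca
Il34: cctttttctattaaatggccATTTAtttgg
The Csf3 window covers bases 28 to 57 of a 3′ UTR of 669 bases and holds 3 copies. The Csf1 window covers bases 2028 to 2057 of 2111 and holds 2, and the Il34 window covers the last bases, 576 to 605 of 605, and holds 1.

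Over the whole 3′ UTR, Csf3 had 6 copies of ATTTA, overlapping copies counted. Among 2297 genes whose longest 3′ UTR is 80% to 120% as long, 1.74% had at least as many. Of these copies some lie in the longer motif TATTTAT, of which Csf3 had 2, a number reached by 3.61% of the same genes. Csf1 had 4 copies of ATTTA, reached by 49.1% of 2797 genes of similar length, and Il34 had 1, reached by 56.4% of 2157. The pentamer GGACT, a form of the sequence in which N6-methyladenosine is placed, occurred 0 times in the Csf3 3′ UTR, 3 times in Csf1 and 2 times in Il34, where 17.3% of genes of similar length had at least as many. At least 3 copies, as in Csf1, were found in 29.2%. At least 1 copy, which Csf3 lacked, was found in 52% of the genes similar to it in length. All motifs were read on the transcript's strand only, and a match is a description of letters and not of binding.

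Csf1 lies on chromosome 3 at positions 107741048 to 107760469 of mm10, minus strand, with 7 annotated transcripts. Csf3 lies on chromosome 11 at 98701263 to 98703629, plus strand, with 1 transcript. Il34 lies on chromosome 8 at 110741829 to 110805924, minus strand, with 5 transcripts. Their deposited exon lengths were 5281, 1413 and 1959 bases for Csf1, Csf3 and Il34. Il34 overlaps the annotated genes Gm15894 and Gm15895 on the other strand, which had 33 and 55 reads over all 12 libraries, and whether counting used strand is not given in the sources.

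The 3 ligands were expressed at very different levels, here compared per length in TPM. Csf1 was the highest in each of the 12 libraries, between 244 and 443 TPM, which placed it 285th to 561st among all genes. Il34 was next, between 7.57 and 24.7 TPM, and Csf3 was lowest, between 0.166 and 6.19 TPM. The order was the same in all 12 libraries. In siControl the median ratio of Csf1 to Il34, the 2 ligands of CSF-1R, was 32.3, with libraries between 32.2 and 38.9, and in siIMP2_IL17 it was 18.9, with libraries between 15.7 and 23.2. The median ratio of Csf1 to Csf3 was 1072 in siControl (500 to 1473) and 76.8 in siIMP2_IL17 (63.7 to 76.8).

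**Figure D1:**
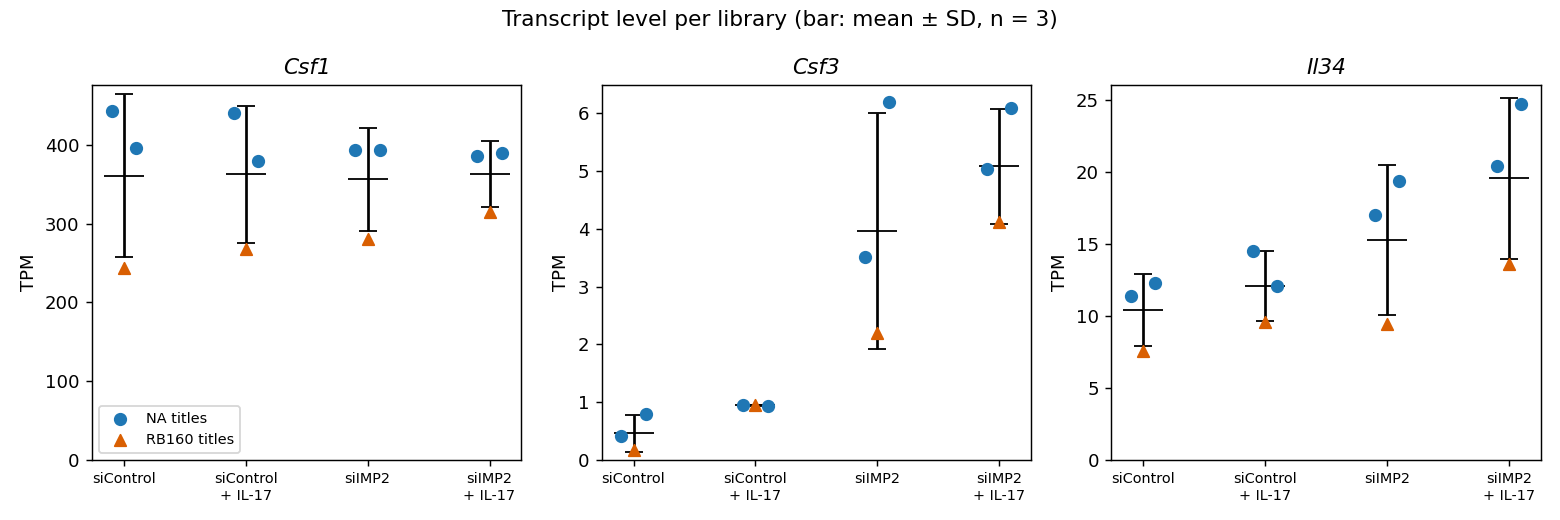
Level of Csf1, Csf3 and Il34 in each library, in TPM on a linear axis from 0 with a different range for each gene, by group. Points are libraries (circles NA titles, triangles RB160 titles), and the bar is the mean with its SD (n = 3). Csf3 lies between 0.166 and 0.951 TPM with the control siRNA and between 2.19 and 6.19 with the IMP2 siRNA, and the Csf1 groups overlap throughout.

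The IMP2 siRNA was followed by more Csf3 and more Il34 mRNA, and Csf1 showed no called change. In unstimulated cells Csf3 was 8.97-fold higher and Il34 1.52-fold higher, and with IL-17 present they were 5.56-fold and 1.68-fold higher. Of all genes tested, 32.9% were called in unstimulated cells and 33.4% with IL-17, so a call by itself was common. Csf3 stood out by its size: only 4 of the 2212 genes called higher in unstimulated cells had a larger log2 fold change, and 22 of 2289 did with IL-17. This size was measured from few reads, 3 to 14 a library in siControl. Ranked by edgeR's p, Csf3 was 357th in unstimulated cells and 491st with IL-17 among the 13702 genes tested. In bulk RNA a change in the share of cells that express a gene and a change in RNA per cell cannot be told apart.

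Csf3 exon reads in siControl were 8, 14 and 3 in replicates 1 to 3, against 69, 116 and 41 in siIMP2. In siControl_IL17 they were 19, 17 and 20, and in siIMP2_IL17 they were 94, 107 and 81. Every IMP2 siRNA library was above every control siRNA library. The level was 0.457 ± 0.316 TPM in siControl and 3.96 ± 2.04 TPM in siIMP2 (SD, n = 3), and with IL-17 it was 0.943 ± 0.00952 TPM and 5.08 ± 1.00 TPM. Even after the rise the mRNA stayed scarce, ranking 8853rd at best. The fitted log2 difference was 3.17 ± 0.36 in unstimulated cells (SE, adjusted p = 3.28e-05) and 2.47 ± 0.31 with IL-17 (adjusted p = 7.03e-05), by edgeR's quasi-likelihood test and Benjamini-Hochberg adjustment over all genes tested. In both title sets the difference had the same direction, 2.90 in the NA and 3.04 in the RB160 libraries without IL-17 and 2.51 and 2.05 with it. Without the title set as a term in the fit the call with IL-17 was lost (adjusted p = 0.053). In the authors' deposited table the log2 fold changes of Csf3 were 3.19 (their FDR p = 0.00201) and 2.52 (0.029).

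Il34 exon reads were 306, 300 and 190 in siControl and 463, 505 and 244 in siIMP2. With IL-17 they were 405, 305 and 280 in siControl_IL17 and 529, 601 and 372 in siIMP2_IL17. The RB160 library was the lowest of each group, and the groups overlapped over all 3 libraries, while within each title set every IMP2 siRNA library exceeded the control siRNA libraries of the same stimulus. The level was 10.4 ± 2.50 TPM in siControl against 15.3 ± 5.23 in siIMP2, and with IL-17 it was 12.1 ± 2.47 against 19.6 ± 5.61 TPM (SD, n = 3). Il34 differed by 0.60 ± 0.12 on the log2 scale in unstimulated cells (SE, adjusted p = 0.00159) and by 0.75 ± 0.11 with IL-17 (adjusted p = 0.000289, edgeR). The difference was 0.70 in the NA and 0.35 in the RB160 libraries without IL-17, and 0.83 and 0.57 with it. Without the title set as a term in the fit Il34 was not called (adjusted p = 0.547 and 0.445), and in the authors' deposited table its log2 fold changes of 0.646 and 0.785 had an FDR p of 1.

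Csf1 exon reads were 32064, 26150 and 16512 in siControl and 28958, 27636 and 19636 in siIMP2. In siControl_IL17 they were 33040, 25842 and 21095, and in siIMP2_IL17 they were 26965, 25489 and 23257. The groups overlapped in each comparison. Mean levels were 361 ± 104, 363 ± 87.0, 356 ± 65.6 and 363 ± 41.6 TPM in siControl, siControl_IL17, siIMP2 and siIMP2_IL17 (SD, n = 3). The fitted difference was 0.08 ± 0.09 on the log2 scale in unstimulated cells and 0.10 ± 0.09 with IL-17 (SE, adjusted p = 0.54 and 0.413, edgeR). Averaged over both stimuli, the 95% interval of the Csf1 difference ran from -0.04 to 0.22.

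**Figure D2:**
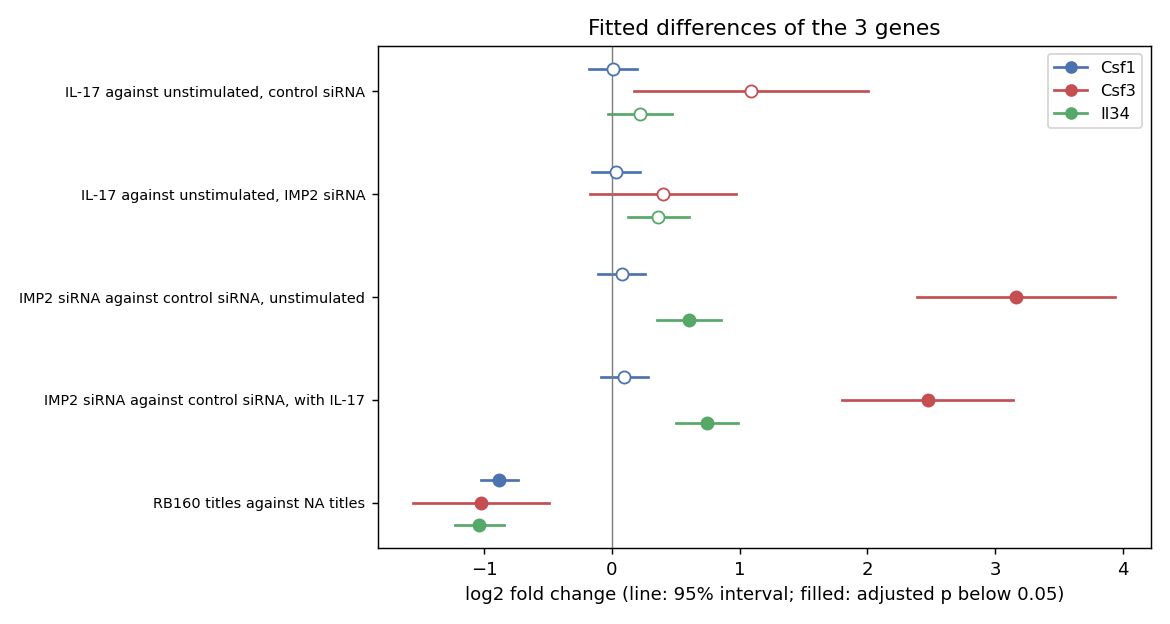
Fitted log2 fold change of each gene in 5 comparisons, with 0 as no difference. Lines are 95% intervals from edgeR, and filled points have an adjusted p below 0.05. Csf3 and Il34 are filled in both siRNA comparisons (3.17 and 0.60 in unstimulated cells, 2.47 and 0.75 with IL-17), no point is filled in the IL-17 comparisons, and all 3 genes are filled below 0 for RB160 against NA titles.

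Averaged over both stimuli, where 49.5% of genes were called, Csf3 rose by 2.82 ± 0.24 on the log2 scale (SE, adjusted p = 9.24e-07), or 7.06-fold, and Il34 by 0.68 ± 0.08 (adjusted p = 1.93e-05), or 1.60-fold. Csf1 differed by 0.09 ± 0.06 (adjusted p = 0.26). An exact two-sided permutation of the siRNA labels within title set and stimulus, which uses no model and allows no p below 0.0139, gave 0.0139 for Csf3 and Il34 and 0.292 for Csf1. The difference was positive in 4 of 4 strata for Csf3 and Il34 and in 2 of 4 for Csf1. With the permutation of the IL-17 labels below, 6 such tests were made, with no adjustment over them.

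IL-17 for 8 hours gave no call in any of the 3 genes, although the fitted differences of Csf3 and Il34 were positive with both siRNAs. Few genes were called at all: 0.423% with the control siRNA and 0.511% with the IMP2 siRNA. With the control siRNA the log2 difference was 1.09 ± 0.43 for Csf3 (SE, adjusted p = 0.358), 0.22 ± 0.12 for Il34 (0.521) and 0.01 ± 0.09 for Csf1 (0.985). Csf3 reads of 17 to 20 in siControl_IL17 lay above all 3 siControl libraries, at 3 to 14, before scaling. In CPM, reads scaled to library size, the groups overlapped, with siControl replicate 2 at 0.418 and siControl_IL17 replicate 3 at 0.393. In TPM they did not, with siControl at most 0.793 and siControl_IL17 at least 0.933. The 95% interval of this Csf3 difference ran from 0.17 to 2.01, and its difference was 0.63 in the NA and 1.85 in the RB160 libraries. With the IMP2 siRNA the log2 difference was 0.40 ± 0.26 for Csf3 (SE, adjusted p = 0.876), 0.36 ± 0.11 for Il34 (0.301) and 0.03 ± 0.09 for Csf1 (1). Here the Csf3 and Il34 groups overlapped over all 3 libraries. Within the NA set the Csf3 libraries overlapped too. Those of Il34 did not, at 17 and 19.4 TPM in siIMP2 and 20.4 and 24.7 in siIMP2_IL17. In the RB160 set Il34 was at 9.4 and 13.6 TPM.

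Averaging both siRNAs, where 2.72% of genes were called, left Il34 just outside the threshold at 0.29 ± 0.08 on the log2 scale (SE, adjusted p = 0.0764, edgeR). The value for Csf3 was 0.74 ± 0.25 (adjusted p = 0.149) and for Csf1 0.02 ± 0.06 (0.916). The exact permutation of the IL-17 labels within title set and siRNA gave a two-sided p of 0.0278 for Il34, 0.0556 for Csf3 and 0.708 for Csf1, with Il34 and Csf3 higher in 4 of 4 strata. Il34 passed the threshold with DESeq2 (adjusted p = 0.0333), with no filter beyond 1 count (0.0317) and without replicate 2 of siControl_IL17 (0.0432). For comparison within the same libraries, Nfkbiz, which encodes a co-activator of IL-17 target genes, rose by 2.17 ± 0.09 on the log2 scale on average (adjusted p = 3.24e-08).

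Whether the IL-17 response itself depended on the siRNA was tested as the difference of both responses, in which 0% of genes were called, 0 of 13702 by edgeR, with 152 at an unadjusted p under 0.05, and 0 by DESeq2 and by limma-voom. The difference was -0.69 ± 0.50 for Csf3 (SE, 95% interval -1.77 to 0.39), 0.14 ± 0.16 for Il34 (-0.21 to 0.49) and 0.02 ± 0.12 for Csf1 (-0.24 to 0.29), each with an adjusted p of 1.

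Csf3 was also read outside its exons, where reads can come from unspliced RNA. These counts are the deposited total reads of a gene minus its exon reads, a readout added after the data had been seen. In replicates 1 to 3 these were 4, 2 and 3 (siControl), 2, 5 and 1 (siControl_IL17), 14, 16 and 21 (siIMP2) and 13, 26 and 14 (siIMP2_IL17). The control and IMP2 siRNA libraries did not overlap. In this readout 22.2% of 12463 genes were called for the average siRNA effect. Csf3 differed by 2.58 ± 0.39 on the log2 scale (SE, adjusted p = 1.76e-05), close to the 2.82 of its exon reads, and Il34 by 0.43 ± 0.10 (adjusted p = 0.00242), with its exon reads at 0.68. Csf1 differed by 0.15 ± 0.09 (adjusted p = 0.242). Taken by stimulus, the Il34 difference outside exons was not called in unstimulated cells (0.24 ± 0.14, SE, adjusted p = 0.325, edgeR). It was called with IL-17 (0.61 ± 0.14, adjusted p = 0.00337). For IL-17 the average difference outside exons was -0.20 ± 0.43 in Csf3 (adjusted p = 0.932) and 0.14 ± 0.10 in Il34 (0.68). Reads outside exons made up 19.3% to 24.1% of Il34 reads and 6.98% to 10.7% of Csf1 reads. Whether the exon and the outside difference differ within a gene was not tested.

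**Figure D3:**
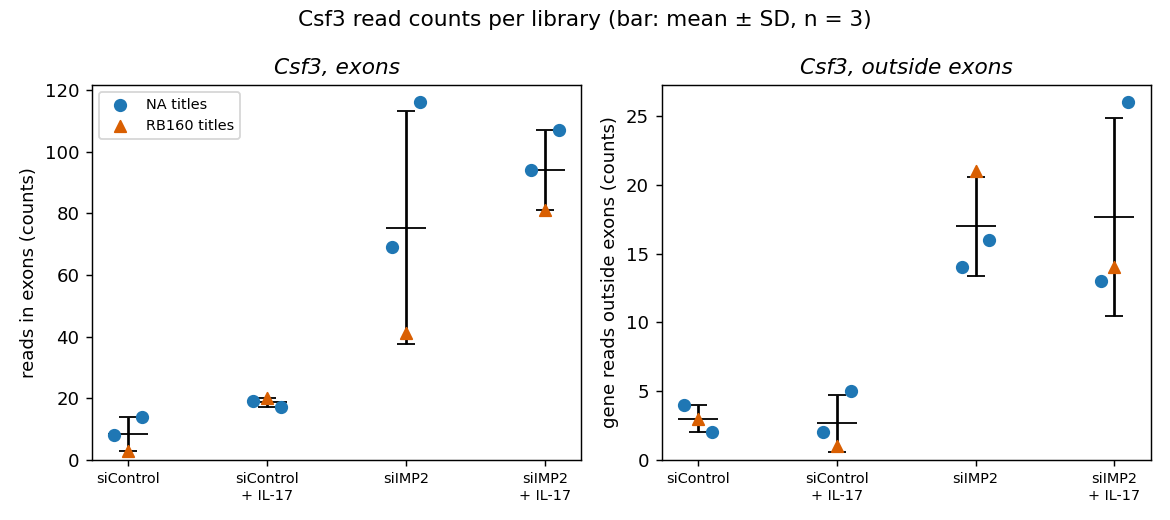
Csf3 reads per library in exons and in the gene outside its exons, as counts on linear axes from 0, by group, with circles for NA and triangles for RB160 titles and bars for the mean and SD (n = 3). In both panels the control siRNA libraries (at most 20 and 5 reads) lie below all IMP2 siRNA libraries (at least 41 and 13 reads).

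The title sets differed in all 3 genes, as they did in 69.5% of genes. RB160 libraries had less Csf1 by a log2 difference of -0.88 ± 0.07 (SE, adjusted p = 1.16e-07), less Csf3 by -1.03 ± 0.25 (0.00226) and less Il34 by -1.04 ± 0.09 (3.37e-07, edgeR). For Csf1 this was the main difference in the data: the 4 RB160 libraries lay between 244 and 315 TPM and the 8 NA libraries between 379 and 443 TPM, with no overlap. As each set holds every group, set and treatment can be told apart. The siRNA effect differed between the sets in 6.58% of genes, and was called in no member: the difference, RB160 minus NA, was 0.28 ± 0.10 for Csf1 (SE, adjusted p = 0.0992, edgeR), -0.15 ± 0.55 for Csf3 (adjusted p = 0.906) and -0.30 ± 0.15 for Il34 (0.279). Csf1 passed this test when no filter beyond 1 count was used (adjusted p = 0.0158), and the RB160 set has 1 library a group. The IL-17 effect differed in 0.307% of genes, and the values were 0.89 ± 0.44 for Csf3 (adjusted p = 0.567), 0.16 ± 0.15 for Il34 (0.822) and 0.14 ± 0.10 for Csf1 (0.723).

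Of the receptors of these ligands, Csf3r and Csf1r were scarce, and Sdc1, described below, was not. Csf3r, the G-CSF receptor, had 0 exon reads in all 12 libraries, which allows up to 3 reads a library. Csf1r, the shared receptor of CSF-1 and IL-34, had 32 to 119 reads, or 0.508 to 1.84 TPM, and was highest in the siIMP2 library of the RB160 set. It differed by 0.37 ± 0.20 on the log2 scale on average with the IMP2 siRNA (SE, adjusted p = 0.141, edgeR). Of the receptors for GM-CSF, Csf2ra lay between 5.84 and 10.3 TPM with a difference of -0.06 ± 0.08 (adjusted p = 0.561), and the shared subunits Csf2rb and Csf2rb2 had at most 5 and 2 reads. GM-CSF itself, Csf2, had 0 to 12 reads and was not tested. Its reads summed to 4 and 1 in unstimulated cells with the control and the IMP2 siRNA and to 21 and 18 after IL-17, with 1 of these 44 reads in an RB160 library.

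Both alternative receptors reported for IL-34 changed with the IMP2 siRNA, in opposite directions. Ptprz1, a receptor tyrosine phosphatase, had 63 to 160 exon reads with the control siRNA and 233 to 603 with the IMP2 siRNA, without overlap. It rose by 2.01 ± 0.09 on the log2 scale (SE, adjusted p = 6.69e-09, edgeR), from 0.855 ± 0.237 TPM in siControl to 3.20 ± 1.19 TPM in siIMP2 (SD, n = 3). Sdc1, the cell-surface proteoglycan syndecan-1, fell by 0.55 ± 0.04 (adjusted p = 2.56e-07), from 122 ± 7.51 TPM in siControl to 80.8 ± 10.7 TPM in siIMP2. Of the 4 receptor and co-receptor genes tested of 7 listed, 1 rose and 1 fell, with a median of 0.15, where the median of all genes tested was 0.00 and 49.5% were called, 3307 higher and 3470 lower of 13702. The lists that follow are read against this share, and none was tested against other genes.

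Membrane-bound CSF-1 is shed by metalloproteinases. Of 5 genes for this step 1 rose and 1 fell with the IMP2 siRNA, beside 49.5% of all genes called. Adam17, the main sheddase, fell by 0.59 ± 0.04 on the log2 scale (SE, adjusted p = 1.5e-07), and Timp3, which inhibits it, rose by 0.24 ± 0.09 (0.0403, edgeR). The Timp3 difference was 0.05 in the NA and 0.65 in the RB160 libraries. Adam10 differed by -0.08 ± 0.04 (0.125) and Rhbdf2 by -0.08 ± 0.07 (0.376), Rhbdf1 was not called either, and none of the 5 was called for IL-17.

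Of 10 other growth factors by which stroma supports blood cells, Angpt1, Il15, Kitl and Tnfsf11 fell and Thpo and Tnfrsf11b rose with the IMP2 siRNA, a called share near the 49.5% of all genes, with a median of -0.31. Tnfsf11, which encodes RANKL and acts with CSF-1 in osteoclast formation, fell by 2.66 ± 0.30 on the log2 scale (SE, adjusted p = 1.1e-05). Its decoy receptor osteoprotegerin, Tnfrsf11b, rose by 0.84 ± 0.06 (1.67e-07). Angpt1 fell by 1.65 ± 0.21 (3.16e-05, edgeR). With IL-17, on average over both siRNAs, 1 of the 10 rose (Lif) and 1 fell (Tnfrsf11b), beside 2.72% of all genes called. Lif, an IL-6 family cytokine, rose by 1.14 ± 0.19 (adjusted p = 0.00519), and differed by -0.44 ± 0.19 with the siRNA (0.0637). The siRNA effect was called different between the title sets in Angpt1, Il11 and Lif, higher in RB160, and in Cxcl12, lower in RB160. In all genes this share was 6.58%.

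Of 18 tested transcription factors reported at the promoters of colony-stimulating factor genes, 10 fell with the IMP2 siRNA (Cebpb, Cebpd, Fos, Junb, Nfkb1, Nfkb2, Nfkbiz, Rel, Relb and Sp1), 3 rose (Cebpg, Fosl1 and Rela), and the median was -0.33. Among all genes 49.5% were called in this comparison, and whether the list differs from them was not tested. Cebpd, a C/EBP factor, fell by 1.41 ± 0.18 on the log2 scale (SE, adjusted p = 3.48e-05), and Fos, a subunit of AP-1, by 1.26 ± 0.12 (2.57e-06, edgeR). Nfkbiz fell by 0.34 ± 0.08 (0.00416), with -0.51 in the NA and -0.01 in the RB160 libraries, and Nfkb2, an NF-kB subunit, fell by 0.51 ± 0.05 (2.91e-06). The siRNA effect was called different between the title sets in Cebpd, Fosl1, Nfkb1 and Nfkbiz, each higher in RB160, beside 6.58% of all genes. With IL-17, on average over both siRNAs, 5 of the 18 rose and 0 fell, beside 2.72% of all genes called: Cebpd, Ets2, Nfkb1, Nfkbiz and Relb. Cebpd rose by 1.28 ± 0.18 (adjusted p = 0.00212), and Relb, another NF-kB subunit, by 0.25 ± 0.06 (0.0399), after differing by -0.57 ± 0.06 with the siRNA (4.77e-06).

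RNA-binding regulators of cytokine mRNA were called in both directions, at a share near the 49.5% of all genes. Of 20 tested with the IMP2 siRNA, 4 rose (Arid5a, Rc3h2, Traf3ip2 and Traf5) and 7 fell (Hnrnpd, Igf2bp3, Ncl, Srsf1, Zfp36l1, Zfp36l2 and the siRNA target Igf2bp2 itself), with a median of 0.02. Zfp36l1, which binds AU-rich elements and promotes decay, fell by 0.59 ± 0.06 on the log2 scale (SE, adjusted p = 2.08e-06), and its relative Zfp36 differed by 0.04 ± 0.08 (0.69, edgeR). Srsf1, a splicing factor, fell by 0.29 ± 0.04 (4.85e-05), and Igf2bp3, a paralogue of the target, fell by 0.40 ± 0.06 (6.65e-05). Zc3h12a, which encodes the endonuclease Regnase-1, rose by 1.99 ± 0.14 with IL-17 (1.04e-05) and differed by 0.24 ± 0.14 with the siRNA (0.167). The siRNA effect was called different between the title sets in Arid5a, Traf5 and Zfp36, lower in RB160, and in Igf2bp2 and Igf2bp3, higher in RB160. In all genes this share was 6.58%. The IL-17 effect on Zc3h12a was higher in RB160, where 0.307% of all genes were called for such a difference.

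Of 6 genes of the IL-17 receptor and its adaptors, Il17ra, Traf3ip2 and Traf6 rose and Il17rd fell with the IMP2 siRNA, where 49.5% of all genes were called. Il17ra, the shared receptor chain, rose by 0.20 ± 0.04 on the log2 scale (SE, adjusted p = 0.00196), and Il17rd fell by 0.71 ± 0.09 (3.48e-05). Traf3ip2, the adaptor Act1, rose by 0.24 ± 0.06 (0.00345, edgeR), and Traf6, a ubiquitin ligase recruited by Act1, rose by 0.16 ± 0.04 (0.00883). None of the 6 was called for IL-17.

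Below the receptors, 8 of 24 signalling genes rose and 9 fell with the IMP2 siRNA, with a median of -0.04, beside 49.5% of all genes called. Stat3, which carries the G-CSF signal, fell by 0.97 ± 0.04 on the log2 scale (SE, adjusted p = 6.69e-09), and Socs3, its feedback inhibitor, fell by 1.16 ± 0.07 (7.36e-08, edgeR). The Src family kinases Fyn and Src rose, by 1.06 ± 0.06 (4e-08) and 0.63 ± 0.04 (1.88e-07). With IL-17, on average over both siRNAs, Cish and Tyk2 rose, where 2.72% of all genes were called. With either siRNA alone, none of the 24 was called for IL-17.

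**Figure D4:**
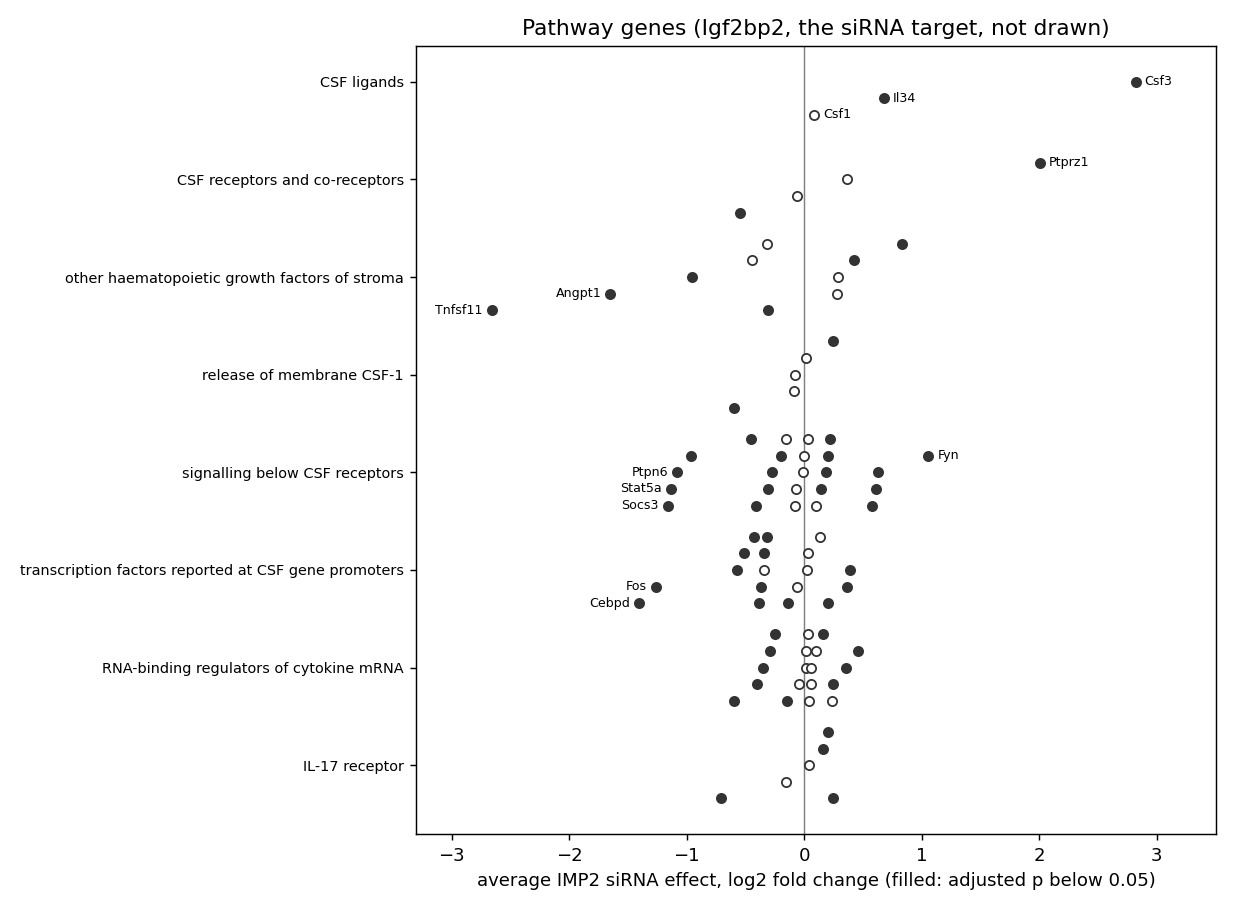
Average log2 fold change with the IMP2 siRNA of each tested gene in the 8 pathway lists, 1 point a gene, stacked vertically only for legibility. Filled points have an adjusted p below 0.05, names are given for the ligands and for called genes beyond 1 in size, and Igf2bp2 is left out. Csf3 (2.82) and Ptprz1 (2.01) lie farthest to the right, and Tnfsf11 (-2.66) farthest to the left.

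Marker genes of other cell types were followed beside these results. Of 14 macrophage markers 13 were in the table and 4 were tested, and 1 of these, Mertk, rose with the IMP2 siRNA, by 0.90 ± 0.11 on the log2 scale (SE, adjusted p = 2.42e-05, edgeR). The summed macrophage marker level, in CPM (reads scaled to library size), ran from 12.49 to 14.36 in siControl and 10.05 to 15.08 in siControl_IL17. It was higher with the IMP2 siRNA, at 18.55 to 22.84 in siIMP2 and 15.43 to 20.81 in siIMP2_IL17. Single markers went both ways in unscaled reads. Csf1r reads summed to 151 and 121 in siControl and siControl_IL17 and to 203 and 147 in siIMP2 and siIMP2_IL17. For Cd68 the sums were 380 and 438 with the control siRNA and 306 and 318 with the IMP2 siRNA. Ptprc, found on all leukocytes, had at most 3 reads in any library. The 10 neutrophil markers summed to at most 0.27 CPM. Of 12 fibroblast markers 8 fell, and Col1a1 and Fn1 rose, beside 49.5% of all genes called. Among those that fell, Pdgfra differed by -2.27 ± 0.08 (SE, adjusted p = 1.77e-09) and Dcn by -2.74 ± 0.16 (5.71e-08). Of 4 tested epithelial markers Krt8 and Krt18 rose and Cdh1 fell. The part of these marker changes in the Csf3 and Il34 results was not tested.

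Across the 12 libraries, after removal of the means of the title sets, the genes whose log2 CPM followed each member most closely were listed among about 10627 genes with an established symbol. For Csf3 these were Slc20a2 (Pearson r = 0.985), Adpgk (0.982), Zfp408 (0.979) and Gabarapl2 (0.979). For Il34 they were Uhrf1bp1 (0.984), Hspb8 (0.975), Zdhhc18 (0.974) and Scmh1 (0.965). The 4 genes closest to Csf3 had average siRNA differences of 0.32 to 0.43 on the log2 scale, far smaller than its 2.82. The likeness is thus one of pattern across libraries and not of size. For Csf1 they were B3gnt5 (0.916), Zfp106 (0.912), Sec13 (0.912) and Dmxl2 (0.909). All points share the 4 treatment groups and the library's depth, and the values are descriptions.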

How the data were processed

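RNA-seq gene counts of 12 fibroblast libraries were analysed, grouped by the labels; whether libraries of a group are separate cultures is not stated, so p-values measure the spread between these libraries. The deposited exon, unique and total gene reads are raw counts per gene. Per the file headers the reads had been trimmed and kept as pairs, and per the submitters' processing notes the genome was mm10. No source used here names the aligner or counter, or says if strand was used. TPM values, the log2 fold changes and the p-values adjusted for the false discovery rate are the authors', as deposited, and their test is not named there. Their columns named Mock were read as the control siRNA.

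The quasi-likelihood model of edgeR 4.0.16 (run in R 4.3.3) was fitted over 12 libraries, with group and title set as terms. Library sizes were scaled by TMM, and filterByExpr kept genes with its settings of 10 reads a library and 15 in total. All 13702 genes that passed were adjusted together by Benjamini-Hochberg, with a threshold of 0.05. A second fit added terms for title set by siRNA and by IL-17. 1 CPM stood for 31.9 to 50.9 reads. Log2 CPM used a prior count of 2. The limit that a count of 0 allows was 3 reads, for counting error only. Series columns equalled the per-library files in 12 of 12 cases, and 0 count columns were unused.

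The members, gene lists and tests were chosen with earlier results of these data known. Named genes were the members, Igf2bp2, all ligand and receptor genes, up to 4 genes of smallest p per list, and the 4 genes of highest r per member; others, such as Cebpd, Igf2bp3, Zfp36, the markers with values and the called genes listed by name, were named after their values were seen. A result among the signalling genes is not reported here. Sequences are from GENCODE M21 transcripts. The alternatives were DESeq2 1.42.0, limma-voom (limma 3.58.1), upper-quartile or RLE scaling, other filters, unique reads, a robust fit, no title set, the NA libraries alone, the groups compared alone, and each library left out. The fit was tested on simulated data.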

Additional observations from a re-analysis of the deposited data

How the results depend on the processing

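Of 570 alternative values for the 30 comparisons of the 3 genes, 539 kept direction and side of the threshold, 4 lost a call, 5 gained one and 22 changed sign, all 22 in Csf1, whose values lie near 0. With the NA libraries alone Csf1 was -0.021 and -0.027 for IL-17 with the control and the IMP2 siRNA, -0.010 and -0.017 for the siRNA without and with IL-17, -0.007 for the difference of responses, and -0.024 and -0.014 for the averages of IL-17 and siRNA. With no title set term Csf1 was -0.002 for IL-17 with the control siRNA. With each library left out Csf1 ran from -0.072 to 0.092 and -0.074 to 0.086 for IL-17, -0.008 to 0.159 and -0.006 to 0.179 for the siRNA, -0.085 to 0.103 for the difference of responses, and -0.032 to 0.063 for average IL-17.

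With no title set term Il34 lost its siRNA calls (0.640, adjusted p = 0.547, 0.778 with IL-17, 0.445, and 0.709 on average, 0.17), as did Csf3 with IL-17 (2.515, 0.053). Il34 gained an IL-17 call with the IMP2 siRNA when only the groups compared were fitted (0.366, 0.0454), and on average with DESeq2 (0.292, 0.0333) and no filter (0.294, 0.0317). With each library left out its average IL-17 value ran from 0.242 to 0.344, called without siControl_IL17 replicate 2. Csf1 gained a set difference with no filter (0.278, 0.0158). The siRNA calls of Csf3 and Il34 held in all 12 fits that left out a library (Csf3 2.825 to 3.68 without IL-17). Over all genes the number called was 58 for IL-17 with the control siRNA (1 to 221 under alternatives), 70 with the IMP2 siRNA (2 to 349) and 373 on average (4 to 674), and 4505, 4581 and 6777 for the siRNA without IL-17, with it and on average, each lowest with no title set term (321, 327 and 1666). It was 902 (778 to 1522) and 42 (36 to 322) for the differences between title sets.

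No paired analysis was made, because the labels number no replicates within groups: the numbers used here follow accession order and only name libraries. The order of the NA titles repeats the 4 groups, but no label says that the libraries of such a run belong together. A fit that assumes this was not made. The title set, which the titles do give, was a term in the fit.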
